A study of Rattus norvegicus with 35 samples.

Results

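The high dose of ketoconazole was set against the low dose after 7 days in rat liver, across all miRNAs of the count table. The comparison used 6 of the 35 libraries of the series, chosen by their labels, and 328 of the 763 miRNAs in the table had enough reads to be tested. The high dose group (100 mg/kg per day by mouth, 3 libraries) and the low dose group (10 mg/kg per day by mouth, 3 libraries) were male Sprague-Dawley rats aged 6 weeks. The other day 7 groups used here were the middle dose (30 mg/kg per day, 3 libraries) and the controls, which were given 0.5% methylcellulose, the vehicle of the drug (3 libraries). The same doses were also given for 3 and 14 days (3 libraries in each dose group). All livers were taken 24 h after the last dose and small RNA was sequenced from total RNA. The study set 3 doses and a vehicle against each other at 3 durations of treatment.

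MicroRNAs (miRNAs) are short RNAs cut from hairpin precursors, and either arm of a hairpin, named 5p or 3p, can be loaded into Argonaute proteins. A loaded miRNA represses messenger RNAs that pair with its seed, bases 2 to 8 from its 5′ end, so miRNAs with the same seed share many targets. Ketoconazole is an azole antifungal that blocks a cytochrome P450 step of sterol synthesis and is known for liver toxicity. Liver holds hepatocytes, rich in miR-122, beside endothelial, stellate, bile duct and blood cells with miRNAs of their own.

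The mature sequences of the miRNAs on which the comparison turned are given here from RefSeq (GRCr8), with the seed in capitals. They are shown because several miRNAs that share a seed were called in the same direction, while others that share one were not. The pairs shown are chosen examples and give no share of seed groups that agree. Further seed pairs had only 1 member called, among them miR-193a-3p with miR-193b-3p, miR-27a-3p with miR-27b-3p, miR-130a-3p with miR-130b-3p, and miR-146a-5p with miR-146b-5p. The members of the miR-15/16 family that could be matched, of which miR-322-5p, miR-497-5p, miR-16-5p and miR-195-5p were lower at the high dose, share one seed.
miR-322-5p: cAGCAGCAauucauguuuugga
miR-497-5p: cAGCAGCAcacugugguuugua
miR-16-5p: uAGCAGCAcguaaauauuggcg
miR-195-5p: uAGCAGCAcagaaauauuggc
miR-15b-5p: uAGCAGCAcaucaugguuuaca
Both members of 2 seed pairs were higher at the high dose.
miR-101a-3p: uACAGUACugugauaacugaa
miR-101b-3p: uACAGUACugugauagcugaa
miR-103-3p: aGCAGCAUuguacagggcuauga
miR-107-3p: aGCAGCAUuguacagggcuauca
Both members of another pair were lower.
miR-23a-3p: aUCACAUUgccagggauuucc
miR-23b-3p: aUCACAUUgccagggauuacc
In the next 2 pairs, 1 member was called and the other was not called or was called the opposite way. The miR-30 pair is part of 3 tested miRNAs matched to its seed, and miR-30e-5p, not shown, was not called.
miR-26a-5p: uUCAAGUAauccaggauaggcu
miR-26b-5p: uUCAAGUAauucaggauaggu
miR-30a-5p: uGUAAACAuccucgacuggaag
miR-30c-5p: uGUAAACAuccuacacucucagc
The arms of the miR-340 hairpin were called in opposite directions and have unrelated seeds.
miR-340-5p: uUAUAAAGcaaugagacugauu
miR-340-3p: uCCGUCUCaguuacuuuauagcc
Finally, these are other called miRNAs that are described one by one.
miR-193a-3p: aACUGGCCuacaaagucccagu
miR-374-5p: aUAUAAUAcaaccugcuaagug
miR-210-5p: aGCCACUGcccacagcacacug
miR-24-2-5p: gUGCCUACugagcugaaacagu
miR-532-5p: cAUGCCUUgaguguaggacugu
miR-182: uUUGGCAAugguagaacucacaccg

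Within the listed pairs, miR-23a-3p and miR-23b-3p, miR-101a-3p and miR-101b-3p, and miR-103-3p and miR-107-3p each differ at 1 position, and miR-26a-5p and miR-26b-5p at 2 positions over their shared length. How reads that match more than one such miRNA were assigned is not given in the sources used here, so the counts within these pairs are uncertain. A RefSeq sequence was found for 292 of the 328 tested miRNAs. The median GC content was 47.8% for the higher, 45.5% for the lower and 47.6% for all tested miRNAs with a sequence, and the median length was 22 nt in each set.

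Total counts per library were 4749001, 4453452 and 3486287 at the high dose and 4017830, 4291752 and 3636304 at the low dose. Replicate numbers are not said to stand for separate rats, so the spread behind the p-values is that between samples and may be technical. In a principal component analysis of all 35 libraries, the first component (46.2% of the variance) placed the high dose libraries of day 7 at 4.77 to 6.47 and the low dose libraries of day 7 at 4.24 to 4.67. The low dose libraries of days 3 and 14 lay on the other side, at -9.65 to -4.32, with the controls at -14.49 to -5.33. The low dose libraries of day 7 therefore stood apart from those of the other low dose days and sat beside the treated libraries. Whether their dose and day labels are right was not tested, and every high minus low value of day 7 rests on them. No value without them exists for the comparison on day 7, so the same doses on days 3 and 14 are given further on. The 435 untested miRNAs averaged at most 1.43 CPM (counts scaled to a common library size) over the 6 libraries.

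At the high dose, 79 of 328 miRNAs (24.1%) differed from the low dose at an adjusted p below 0.05 (quasi-likelihood F-test in edgeR, adjusted by Benjamini-Hochberg). Of these, 23 were higher (7.01% of those tested) and 56 lower (17.1%). Most differences were small, with 2 of the higher and 8 of the lower miRNAs reaching 2-fold. The 3 high dose libraries did not overlap the 3 low dose libraries in 22 of the 23 higher and 54 of the 56 lower miRNAs, while 46.6% of all tested miRNAs had separate groups (15.2% with the high dose above and 31.4% with it below). The median log2 fold change over all 328 was -0.20 with the trimmed mean of M-values (TMM) scaling used here. With DESeq2's size factors the values shifted upward by a median of 0.16, and the split became 34 higher and 29 lower. With no low-count filter the shift was 0.24, with 35 higher and 10 lower. Each of the 79 kept its sign under TMM, DESeq2's size factors and library size alone, and 21 of the 23 higher and 29 of the 56 lower passed under all 3. Without high dose replicate 3, 25 were higher and 24 lower. Across the 13 other settings and left-out libraries, 11 higher and 9 lower miRNAs passed every time, and these lead the description below.

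**Figure D1:**
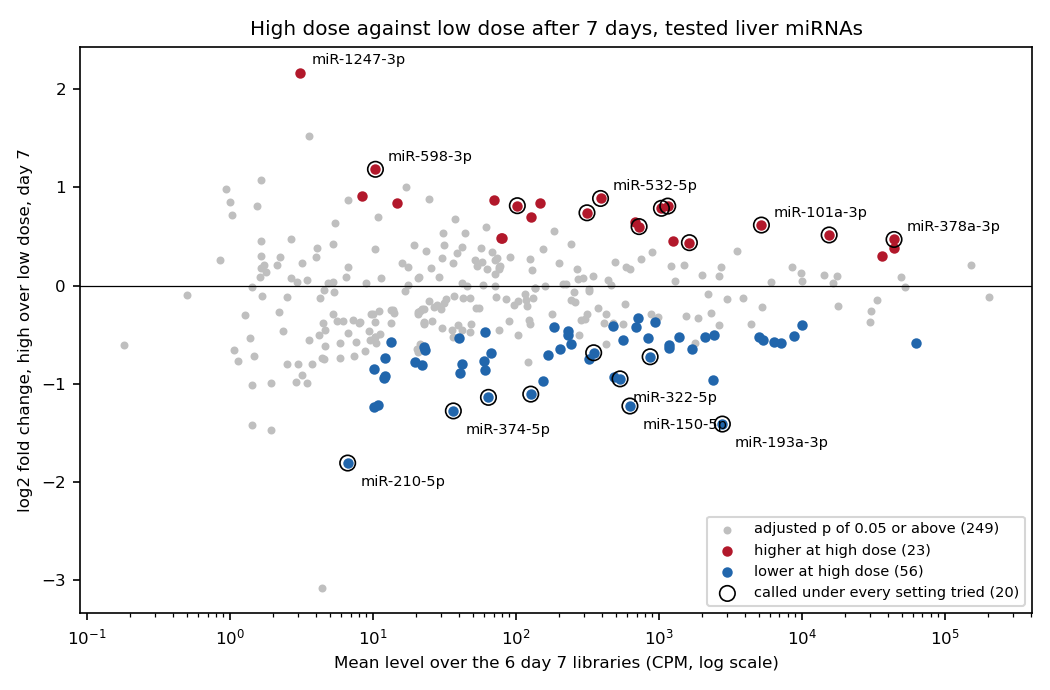
Each point is 1 of the 328 tested miRNAs, with its mean CPM over the 6 libraries on a log axis and its log2 fold change (high over low dose, day 7). The 23 higher and 56 lower miRNAs are coloured, and circles mark the 20 that passed under every setting tried.

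The 11 higher miRNAs that passed throughout were miR-598-3p, miR-532-5p, miR-99a-3p, miR-182, miR-340-5p, miR-3559-5p, miR-101a-3p, miR-107-3p, miR-101b-3p, miR-378a-3p and miR-103-3p. miR-598-3p, at 17.0, 11.9 and 14.6 CPM at the high dose against 8.19, 5.26 and 5.68 CPM at the low dose, was 2.27-fold higher (log2 fold change 1.18 ± 0.30 (SE), adjusted p = 0.00453 in edgeR). miR-532-5p had 466, 489 and 571 CPM at the high dose and 263, 269 and 294 CPM at the low dose, a log2 fold change of 0.89 ± 0.20. In both, the lowest high dose library lay above the highest low dose library.

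miR-340-5p, encoded in an intron of Rnf130, stood at 1281, 1304 and 1385 CPM at the high dose against 742, 756 and 805 CPM at the low dose (0.79 ± 0.17, adjusted p = 0.00152 in edgeR). Its replicates were close to each other in both groups and the groups were far apart. miR-182, encoded in one cluster with miR-183 and miR-96 that is induced by the sterol regulator SREBP-2 in mouse liver, had 1416, 1792 and 1212 CPM at the high dose and 863, 956 and 704 CPM at the low dose (0.81 ± 0.21, adjusted p = 0.00533 in edgeR). Its cluster partners miR-183-5p (0.17 ± 0.42) and miR-96-5p (0.08 ± 0.34) did not pass.

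miR-101a-3p and miR-101b-3p, liver-abundant miRNAs known to target the histone methyltransferase Ezh2, moved together. miR-101a-3p had 6368, 5989 and 6644 CPM at the high dose and 3971, 4077 and 4353 CPM at the low dose (0.62 ± 0.15), and miR-101b-3p had 17840.1, 17387 and 19780.1 CPM against 12798, 12279 and 13426 CPM (0.51 ± 0.14). Both miRNAs of the seed pair miR-103-3p and miR-107-3p (2 of 2 tested, beside 7.01% of all tested) rose by 0.44 ± 0.13 and 0.60 ± 0.14. They lie in introns of pantothenate kinase genes and are known in mouse to lower hepatic insulin sensitivity. In all 4 miRNAs the groups were separate. The members of each pair differ at 1 position and the assignment of shared reads is not given. Their values may therefore not be separate observations.

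miR-378a-3p, encoded in an intron of Ppargc1b and tied to energy metabolism, was among the most abundant miRNAs, at 47827, 48619 and 57954 CPM at the high dose and 43034, 33098 and 35432 CPM at the low dose (0.47 ± 0.12). Its share of all reads averaged 5.16% at the high dose and 3.66% at the low dose. miR-99a-3p, the scarcer arm of the miR-99a hairpin, rose by 0.81 ± 0.20 and miR-3559-5p by 0.74 ± 0.17 on the log2 scale, again with no overlap.

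The remaining rises chosen for size were less steady. miR-331-3p had 115, 77.6 and 78.3 CPM at the high dose and 55.5, 41.4 and 51.7 CPM at the low dose (0.87 ± 0.27, adjusted p = 0.0182 in edgeR). It no longer passed without high dose replicate 1, its highest library, at 0.65, or without low dose replicate 2, at 0.75. miR-15b-3p (0.84 ± 0.26) did not pass without low dose replicate 1 (0.78) or 2 (0.74). miR-429 (0.84 ± 0.28) and miR-200b-3p (0.65 ± 0.23), both of the epithelial miR-200 family, did not pass without high dose replicate 1 (0.74 and 0.39), low dose replicate 1 (0.76 and 0.53) or low dose replicate 2 (0.82 and 0.67). miR-455-5p (0.70 ± 0.25) passed in 1 of the 6 fits with a library left out, and the other 5 values ran from 0.52 to 0.78. The largest rise of all was that of the scarce miR-1247-3p (2.16 ± 0.64), named after its values were seen, with 3.99, 4.84 and 6.39 CPM at the high dose and 1.02, 1.60 and 0.568 CPM at the low dose. It rests on 63 reads against 13, and did not pass without low dose replicate 3 (1.90).

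**Figure D2:**
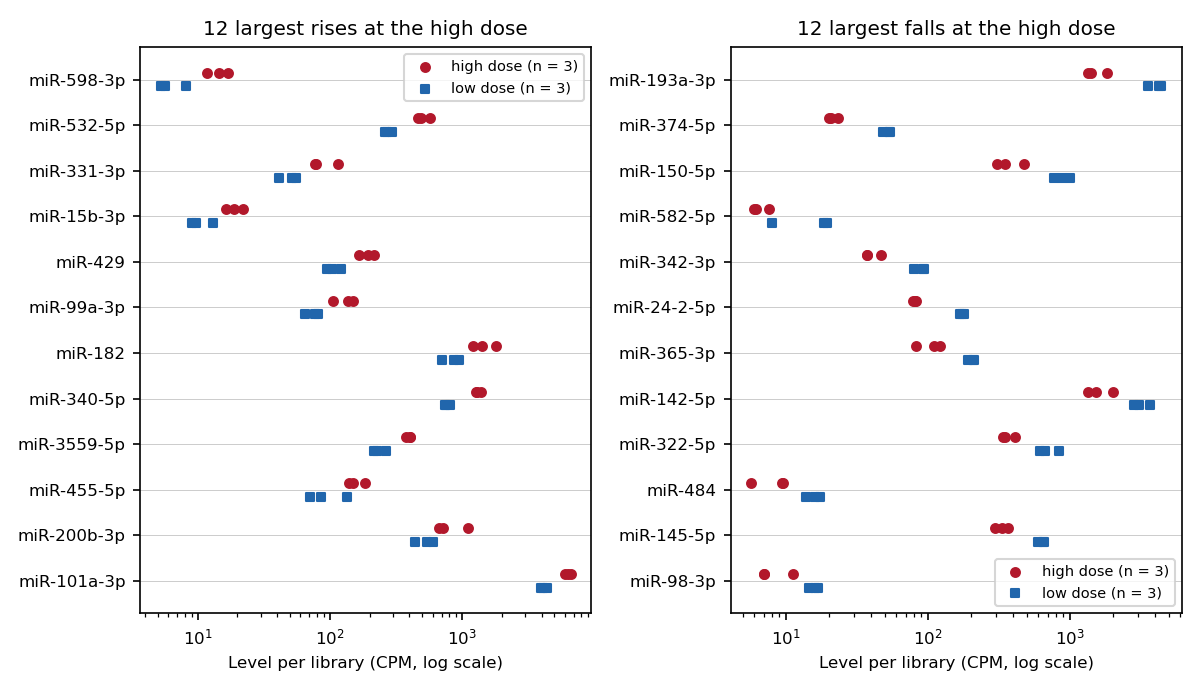
CPM (log axis) in each library of day 7 for the 12 largest rises and the 12 largest falls among called miRNAs with a mean of at least 10 CPM and separate groups. Red circles are the 3 high dose libraries and blue squares the 3 low dose libraries, and in each row the symbols do not overlap because the choice required it.

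The 9 lower miRNAs that passed throughout were miR-210-5p, miR-193a-3p, miR-374-5p, miR-150-5p, miR-342-3p, miR-24-2-5p, miR-322-5p, miR-497-5p and miR-23a-3p. miR-193a-3p, known in human tumours to restrain growth, had 1402, 1349 and 1830.1 CPM at the high dose against 4411, 4213 and 3539 CPM at the low dose. It was 2.66-fold lower (-1.41 ± 0.21, adjusted p = 2.51e-05 in edgeR), and each high dose library lay below each low dose library. miR-210-5p, the scarce arm of the hypoxia-induced miR-210 hairpin, had 2.79, 3.30 and 2.74 CPM at the high dose and 12.0, 10.1 and 9.09 CPM at the low dose (-1.81 ± 0.29), from 38 reads against 123.

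miR-374-5p stood at 23.1, 20.2 and 20.7 CPM at the high dose and 53.2, 48.0 and 54.3 CPM at the low dose (-1.28 ± 0.20, adjusted p = 2.51e-05 in edgeR). Within each group its libraries lay within a few CPM of each other. miR-24-2-5p, an arm encoded in the miR-23a/27a/24-2 cluster, had 82.8, 78.7 and 81.0 CPM at the high dose and 172, 181 and 169 CPM at the low dose (-1.10 ± 0.18). Its high dose libraries were nearly identical.

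Falls that did not pass throughout included miR-365-3p (-0.97 ± 0.27), miR-142-5p (-0.96 ± 0.21), miR-145-5p (-0.93 ± 0.23), miR-484 (-0.94 ± 0.24), miR-582-5p (-1.22 ± 0.38) and miR-98-3p (-0.92 ± 0.31). Without high dose replicate 3, miR-365-3p was at -0.91, miR-142-5p at -0.68 and miR-145-5p at -0.68, and none of these 3 passed. The same was true of miR-365-3p without high dose replicate 2 (-0.82). miR-484 passed whichever library was left out, but not with no low-count filter (-0.70). miR-582-5p and miR-98-3p, both scarce, missed the threshold with DESeq2's size factors (-1.06 and -0.77). Of the 6 fits with a library left out, miR-582-5p was lost in 5, at -1.18 to -1.02, and miR-98-3p in 4, at -0.91 to -0.80.

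The miRNAs of the hepatocyte list were called in both directions. Not all of them are particular to hepatocytes, and miR-21-5p and miR-30a-5p are also in other lists used here. Of 13 tested, 3 were higher and 2 lower, beside 7.01% and 17.1% of all tested, and their median log2 fold change was -0.02, beside -0.20 for all. miR-101a-3p, miR-101b-3p and miR-30a-5p (0.30 ± 0.09) were higher, and miR-194-5p (-0.56 ± 0.12) and miR-192-3p (-0.47 ± 0.16) lower. The miR-192-3p call was lost in 5 of the 6 fits with a library left out (-0.45 to -0.41). The miR-30a-5p call ended without high dose replicate 2 (0.28) or low dose replicate 2 (0.26). With DESeq2's size factors the list had 4 higher and 1 lower and a median of 0.14. With no low-count filter the list had 4 higher and 0 lower, with miR-194-5p at -0.32.

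miR-122-5p, typical of hepatocytes and a serum marker of liver injury, had 23629, 25788 and 29068 CPM at the high dose and 31161, 37467 and 32964 CPM at the low dose. Although the libraries did not overlap, the log2 fold change of -0.37 ± 0.14 did not pass (adjusted p = 0.0592 in edgeR), though it passed when the 2 doses were fitted alone (-0.28). It took 2.62% of the reads at the high dose and 3.35% at the low dose, so the miRNA that defines hepatocytes was present in all 6 libraries. Its partner arm miR-122-3p was at -0.33 ± 0.16 and also did not pass. miR-192-5p (0.21 ± 0.10) did not pass with TMM, with an adjusted p of 0.101 in edgeR. It was called higher in 7 of the 13 other fits, with library size alone (0.24), with DESeq2's size factors (0.37), without a filter (0.45), with the filter of at least 10 CPM (0.31), in DESeq2's Wald test (0.37), in a fit of the compared groups alone (0.30) and without high dose replicate 3 (0.34). miR-21-5p, tied to inflammation and fibrosis, was at -0.02 ± 0.18 and miR-22-3p, the most abundant miRNA with 19.6% of the reads at the high dose and 20.9% at the low dose, at -0.12 ± 0.10. Neither of these 2 passed, and both values were above 0 with DESeq2's size factors. miR-26a-5p was the most abundant miRNA that was called lower, with a share of 5.04% at the high dose and 7.44% at the low dose.

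Of 7 white blood cell miRNAs tested, 4 were lower at the high dose and 0 higher, beside 17.1% and 7.01% of all tested. All 7 values lay below 0 and the median was -0.69, beside -0.20 for all miRNAs. miR-150-5p, a miRNA of mature lymphocytes, had 305, 476 and 349.6 CPM at the high dose and 995, 881 and 769 CPM at the low dose (-1.23 ± 0.19, adjusted p = 2.51e-05 in edgeR). miR-342-3p, which lies in an intron of the Evl gene and is abundant in lymphocytes, had 37.1, 46.4 and 37.2 CPM against 93.4, 79.6 and 92.9 CPM (-1.14 ± 0.25). Neither miRNA had overlapping groups.

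miR-142-5p, found in most blood cells of the hematopoietic lineage, had 1537, 2007 and 1349.9 CPM at the high dose and 3687, 2816 and 3044 CPM at the low dose (-0.96 ± 0.21). miR-223-3p, the typical miRNA of neutrophils and other myeloid cells, had 55.7, 48.6 and 50.9 CPM at the high dose and 96.5, 76.6 and 77.3 CPM at the low dose (-0.69 ± 0.20). miR-155-5p (-0.68 ± 0.26), miR-142-3p (-0.51 ± 0.21) and miR-342-5p (-0.65 ± 0.63) did not pass. Summed over the 7, the level was 1953 to 2885 CPM at the high dose and 4170 to 5270.4 CPM at the low dose. Most of this sum was miR-142-5p, which averaged 2407 CPM over the 6 libraries, beside 629 CPM for miR-150-5p, the next. The sum is therefore not a separate result over 7 markers. The count of lower members was 2 without high dose replicate 3, where miR-142-5p was at -0.68 and miR-223-3p at -0.50. It was 6 without high dose replicate 2, and 3 without low dose replicate 1, where miR-223-3p was at -0.57. With no low-count filter the count was 3, with miR-223-3p at -0.44. All 4 called members had their highest day 7 mean at the low dose. The day 7 control means of miR-342-3p (21.4 CPM) and miR-142-5p (956 CPM) lay below their high dose means (40.2 and 1631 CPM). Those of miR-150-5p (564 CPM) and miR-223-3p (69.3 CPM) lay between the 2 doses. In bulk liver, fewer cells of a type and less of a miRNA per cell cannot be told apart.

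**Figure D3:**
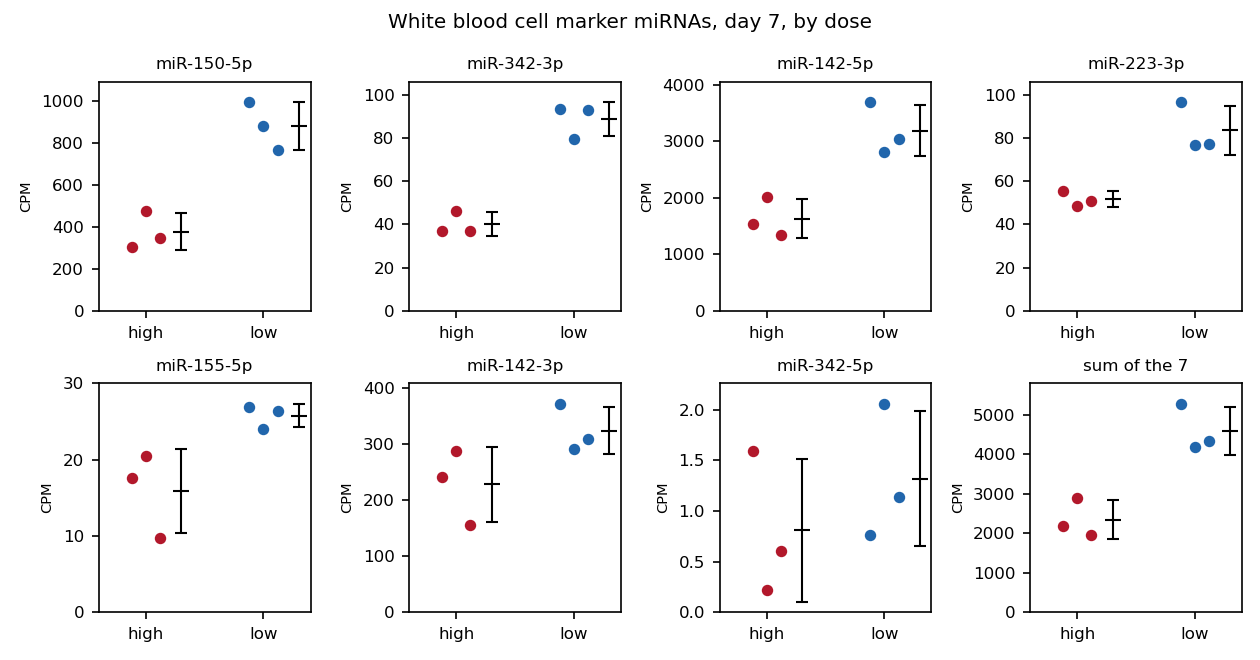
CPM of the 7 white blood cell miRNAs and of their sum in the high dose (left) and low dose (right) libraries of day 7, with points for the 3 libraries of a group and a bar for their mean ± SD. The summed level is 1953 to 2885 CPM at the high dose and 4170 to 5270.4 CPM at the low dose, without overlap.

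Markers of the other cell types were called less evenly. In the list of stellate and smooth muscle cells, 7 were tested, miR-143-3p (0.38 ± 0.11) was higher and miR-145-5p and miR-199a-5p (-0.46 ± 0.17) were lower, beside 7.01% higher and 17.1% lower of all tested. The miR-143-3p call ended without low dose replicate 1 (0.31), and miR-199a-5p did not pass in 5 of the 6 fits with a library left out (-0.50 to -0.16). miR-145-5p, a smooth muscle miRNA cut from the same primary transcript as miR-143, had 367, 333 and 297 CPM at the high dose and 600.2, 645 and 656 CPM at the low dose. Of 7 bile duct or epithelial miRNAs, miR-429, miR-200b-3p and miR-200a-5p (0.91 ± 0.33) were higher and miR-141-3p (-0.89 ± 0.32) was lower, beside the same 7.01% and 17.1%. The 3 rises were absent without low dose replicate 1 or without high dose replicate 1, where miR-200a-5p was at 0.77 and 0.79, and miR-141-3p passed in 1 of the 6 fits with a library left out (-1.04 to -0.47 in the other 5) and in neither other scaling. Without low dose replicate 2 there was 1 rise and without low dose replicate 3 there were 2.

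No member passed among 2 endothelial miRNAs (with values of -0.22 ± 0.16 for miR-126a-3p and -0.20 ± 0.10 for miR-126a-5p), 4 red blood cell miRNAs (miR-144-3p at -0.78 ± 0.32, miR-144-5p at -0.23 ± 0.31, miR-451-5p at -0.35 ± 0.32 and miR-486 at 0.10 ± 0.33), 2 muscle miRNAs (miR-133a-3p at -0.58 ± 0.56 and miR-499-5p at 0.18 ± 0.27) and 2 of pancreas and neuroendocrine cells (miR-375-3p at 0.07 ± 0.22 and miR-7a-5p at -0.39 ± 0.24). Without low dose replicate 3, miR-144-3p was called lower (-1.01). The values of miR-451-5p ran from 212 to 274 CPM at the high dose and from 212 to 403 CPM at the low dose, so these groups overlapped.

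Of the families, miR-15/16, known to restrain the cell cycle, had 5 of 6 tested members lower and 0 higher, beside 17.1% and 7.01% of all tested, with a median of -0.57 beside -0.20. miR-322-5p, the rodent counterpart of miR-424, had 338, 413 and 348 CPM at the high dose and 669.8, 833 and 618 CPM at the low dose (-0.95 ± 0.14, adjusted p = 2.51e-05 in edgeR). miR-497-5p had 563, 609 and 799.6 CPM at the high dose and 1079, 1124 and 1054 CPM at the low dose (-0.72 ± 0.17). These 2 passed throughout. miR-16-5p (-0.58 ± 0.15), the most abundant of the family, miR-195-5p (-0.55 ± 0.17) and miR-15a-5p (-0.42 ± 0.15) passed with TMM but not with DESeq2's size factors, where 2 of the 6 were lower. Without high dose replicate 3 the count was also 2, with miR-16-5p at -0.39 and miR-195-5p at -0.44. miR-195-5p was lost in 4 of the 6 fits with a library left out (-0.55 to -0.44) and miR-15a-5p in 5 (-0.46 to -0.28). miR-15b-5p, with the same seed, was at -0.09 ± 0.18 and above 0 with DESeq2's size factors.

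Of the miR-23/24/27 clusters, which carry miRNAs of vessel and metabolic regulation, 4 of 9 tested were lower and 0 higher, beside 17.1% and 7.01% of all tested, with a median of -0.61 beside -0.20. These were miR-24-2-5p, miR-23a-3p (-0.68 ± 0.12), miR-23b-3p (-0.61 ± 0.16) and miR-27a-3p (-0.37 ± 0.11). miR-23a-3p had 279, 258 and 271 CPM at the high dose and 411, 432 and 454 CPM at the low dose, with tight replicates and a clear gap. Without high dose replicate 3 miR-23b-3p was at -0.45 and miR-27a-3p at -0.21, and neither passed, leaving 2. The miR-27a-3p call was also lost without high dose replicate 2 (-0.32) and low dose replicate 2 (-0.36). With DESeq2's size factors it was at -0.21 and did not pass, which left 3. With no low-count filter 2 were lower, with miR-23b-3p at -0.37 and miR-27a-3p at -0.13.

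In the list of miR-193 and miR-365 miRNAs, miR-193a-3p and miR-365-3p of 3 tested were lower, beside 17.1% of all tested. miR-193b-3p (-0.36 ± 0.25) did not pass. miR-365-3p, encoded close to miR-193 in mammals, had 109.5, 82.5 and 122 CPM at the high dose and 192, 209 and 212 CPM at the low dose. The 2 groups did not overlap, and the replicates of the high dose were the more scattered.

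The 9 tested miR-30 miRNAs split, with miR-30a-5p higher and miR-30c-5p (-0.57 ± 0.11), miR-30b-5p (-0.52 ± 0.11), miR-30d-3p (-0.60 ± 0.16) and miR-30b-3p (-0.62 ± 0.23) lower, beside 7.01% higher and 17.1% lower of all tested. miR-30c-5p had 4712, 5040.0 and 5769 CPM at the high dose and 8025, 7347 and 7674 CPM at the low dose. Although miR-30a-5p and miR-30c-5p share the seed GUAAACA, they were called in opposite directions. The miR-30c-5p and miR-30b-5p calls held with each library left out and under all 3 scalings. With no low-count filter they were at -0.34 and -0.29 and did not pass, and the list had 0 lower. The miR-30d-3p and miR-30b-3p calls were lost with DESeq2's size factors, and miR-30b-3p also in 5 of the 6 fits with a library left out (-0.64 to -0.50).

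In the let-7 family, which restrains growth and differentiation programmes, 3 of 9 were lower and 0 higher, beside 17.1% and 7.01% of all tested, with a median of -0.34 beside -0.20. let-7b-5p (-0.63 ± 0.16), let-7d-5p (-0.53 ± 0.12) and let-7a-5p (-0.40 ± 0.13) passed, and let-7c-5p (-0.39 ± 0.16) did not, though it did in a fit of the compared groups alone (-0.31). With no low-count filter 0 of the family were lower, with let-7b-5p at -0.40 and let-7d-5p at -0.30. let-7a-5p missed the threshold with DESeq2's size factors (-0.25) and in 5 of the 6 fits with a library left out (-0.38 to -0.33). Of the miR-29 family, which targets collagen messages, miR-29a-5p (-0.78 ± 0.21) and miR-29b-3p (-0.53 ± 0.17) of 5 were lower, beside 17.1% of all tested. Neither passed the threshold without high dose replicate 3 (-0.55 and -0.27) or with no low-count filter (-0.54 and -0.28). miR-29b-3p also missed it without low dose replicate 1 (-0.47) or 2 (-0.52). The same was true of miR-29b-3p with DESeq2's size factors (-0.37) and with the filter of at least 10 CPM (-0.43). It was also lost in DESeq2's Wald test (-0.36) and in a fit of the compared groups alone (-0.43).

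Of 8 inflammation-linked miRNAs, miR-146a-5p (-0.75 ± 0.21), a brake on NF-kappaB signalling, was lower along with miR-223-3p of the white cell list, 2 of 8 beside 17.1% of all tested. The 2 calls were both lost without high dose replicate 3 (miR-146a-5p at -0.43) or low dose replicate 1 (-0.62), and miR-146a-5p also without high dose replicate 1 (-0.62) or with DESeq2's size factors (-0.58). In the miR-99/100 and miR-125 families, miR-125a-5p (-0.64 ± 0.21) and miR-125b-5p (-0.52 ± 0.17) of 7 were lower, beside 17.1% of all tested, neither with DESeq2's size factors (-0.49 and -0.36). Leaving out high dose replicate 2 or 3 or low dose replicate 2 also left neither, the values without high dose replicate 3 being -0.50 and -0.29, and miR-125a-5p was also lost without high dose replicate 1 (-0.62). Of 5 miRNAs linked to sterols, miR-182 was higher, beside 7.01% of all tested. miR-33-3p, from the Srebf2 gene, was at -0.24 ± 0.21 and did not pass. Of 12 miRNAs from miR-17/92 and related clusters, 1 was lower, miR-17-5p (-0.42 ± 0.15), beside 17.1% of all tested. The miR-17-5p call was lost whichever library was left out (-0.46 to -0.21).

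Of the hypoxia-linked pair, miR-210-5p was lower, beside 17.1% of all tested, and miR-210-3p (-0.00 ± 0.14) did not pass. Of 4 miRNAs linked to p53, none passed with TMM. miR-34a-5p, a direct p53 target, had 48.7, 35.4 and 54.2 CPM at the high dose and 28.7, 27.4 and 30.4 CPM at the low dose (0.67 ± 0.30, adjusted p = 0.0942 in edgeR), without overlap, and it was called higher with DESeq2's size factors (0.83), with either other filter, in DESeq2's Wald test and in a fit of the compared groups alone (0.76 to 0.91). With TMM no member passed in the lists of miR-221 and miR-222 (3 tested, median -0.21), miR-148 and miR-152 (3, -0.17), miR-181 (4, 0.05, with 1 higher with DESeq2's size factors), Dlk1-Dio3 (8, 0.71) and miR-466 (5, -0.53), beside the median of -0.20 for all. In the Dlk1-Dio3 imprinted cluster, miR-411-5p averaged 22.9 ± 8.71 CPM at the high dose and 11.3 ± 2.38 CPM at the low dose (SD, n = 3 each), with overlap and an adjusted p of 0.13 in edgeR's fit across all miRNAs. It was called higher in DESeq2's Wald test (1.16) and in a fit of the compared groups alone (1.08). miR-434-3p (0.88 ± 0.51) and miR-136-3p (0.70 ± 0.51) had wide errors.

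Scaling cancels when 2 miRNAs are compared within a library, and the following ratios, chosen after the values were seen, had no overlap between the doses. An exact permutation test of 3 against 3 libraries cannot go below p = 0.1, so no test is given. For miR-340, where both arms were called, miR-340-3p had 14.0, 15.8 and 18.3 CPM at the high dose and 22.8, 29.3 and 32.1 CPM at the low dose (-0.81 ± 0.24). The ratio of 5p to 3p reads was 83.3 ± 8 at the high dose and 27.8 ± 4.15 at the low dose (mean ± SD, n = 3 each). By itself the miR-340-3p call was lost with DESeq2's size factors (-0.66), without high dose replicate 1 (-0.72) or 3 (-0.74), or without low dose replicate 3 (-0.71). Of 96 hairpins with both arms tested, 2 had both arms called, miR-340 in opposite directions and miR-30b with both arms lower.

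The ratio of miR-374-3p to miR-374-5p reads was 1.03 ± 0.125 at the high dose and 0.32 ± 0.02 at the low dose, so that the 2 arms were about equal in number at the high dose while the 5p arm led at the low dose. The ratio of miR-210-3p to miR-210-5p was 55.1 ± 6.13 at the high dose and 15.6 ± 1.27 at the low dose. For miR-532-5p over miR-532-3p it was 19.6 ± 2.53 at the high dose and 7.84 ± 0.767 at the low dose. In each of these hairpins 1 arm was called and the other was not.

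Between miRNAs of one seed, the ratio of miR-30a-5p to miR-30c-5p was 7.87 ± 0.519 at the high dose and 4.28 ± 0.172 at the low dose. miR-30e-5p (0.11 ± 0.12), which has the same seed, was not called and is not in this ratio. The ratio of miR-26a-5p to miR-26b-5p was 4.92 ± 0.196 at the high dose and 7.66 ± 0.134 at the low dose. miR-26a-5p itself had 46421, 50382 and 53976 CPM at the high dose and 76076, 71568 and 78685 CPM at the low dose (-0.59 ± 0.12, adjusted p = 0.001 in edgeR). With no low-count filter miR-26a-5p was at -0.35 and did not pass. miR-26b-5p (0.05 ± 0.14) did not pass, so 1 of the 2 tested miR-26 miRNAs was lower, beside 17.1% of all tested. miR-143-3p and miR-145-5p, products of 1 primary transcript, gave a ratio of 153 ± 26.2 at the high dose and 60.7 ± 2.84 at the low dose. The ratio of miR-122-5p to miR-150-5p, a hepatocyte against a lymphocyte miRNA, was 71.6 ± 15.3 at the high dose and 38.9 ± 6.57 at the low dose.

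**Figure D4:**
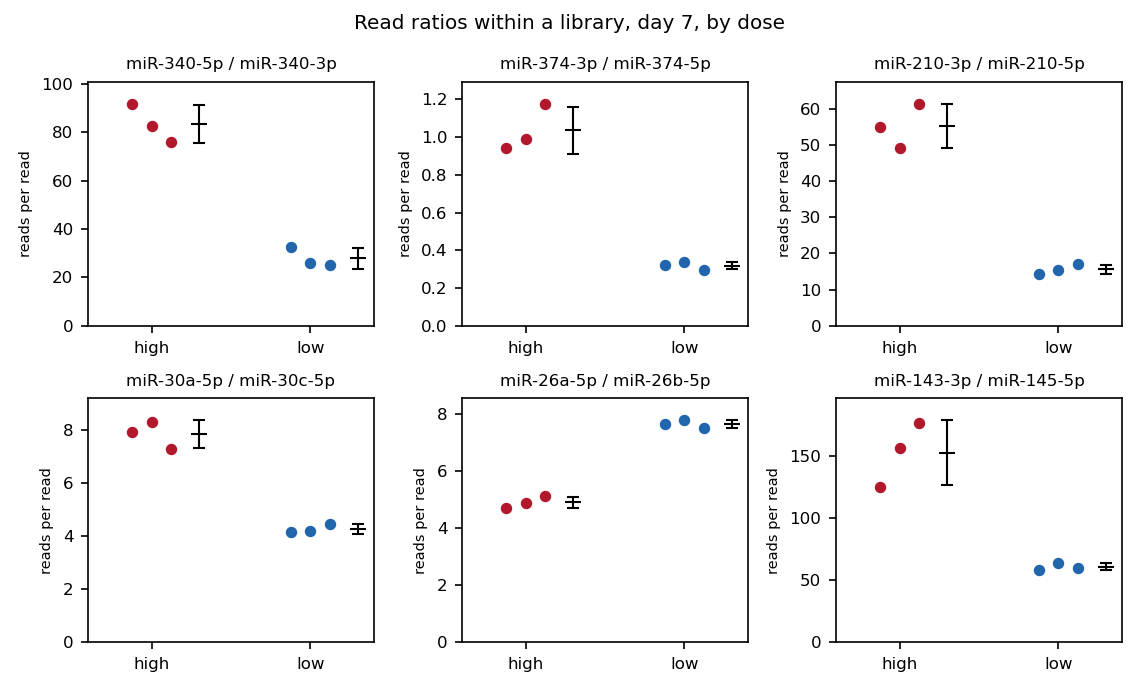
Read ratios within a library for 6 pairs of miRNAs in the high dose (left) and low dose (right) libraries of day 7, with points for libraries and bars for mean ± SD. In each of the 6 panels the doses do not overlap, as for miR-340-5p over miR-340-3p at 75.8 to 91.7 at the high dose and 25.1 to 32.6 at the low dose.

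The middle dose of day 7 was set beside both doses in the called miRNAs. Its mean was between the low and high dose means for 20 of the 23 higher and 46 of the 56 lower miRNAs, and beyond the high dose mean for 3 and 9 of them. The middle and high doses share the low dose libraries as their base here, so these counts are not independent. These miRNAs were also chosen because the low and high doses differed, which favours a middle mean between them. The share over all tested miRNAs was not counted, so nothing is read from these counts. Against the low dose, the middle dose had 33 called miRNAs (10.1%), 7 higher (2.13%) and 26 lower (7.93%). The split was 17 higher and 18 lower with DESeq2's size factors, 12 and 8 with no low-count filter and 21 and 21 in DESeq2's Wald test. The high dose against the middle dose had 0 called (0%) in edgeR, with 45 at an unadjusted p below 0.05, and 0 in DESeq2. Without middle dose replicate 2 the count for high against middle was 6. For middle against low, there were 26 higher and 15 lower without middle dose replicate 1, 9 and 11 without middle dose replicate 2, 8 and 5 without middle dose replicate 3, and 21 in all without low dose replicate 3.

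Under the naming rule, the middle dose was higher than the low dose in miR-183-5p (1.62 ± 0.43), miR-182 (0.99 ± 0.21), miR-194-3p (0.65 ± 0.20) and miR-148a-3p (0.55 ± 0.14), and lower in miR-582-5p (-1.43 ± 0.40), miR-193a-3p (-1.30 ± 0.21), miR-98-3p (-1.23 ± 0.32) and miR-802-5p (-0.91 ± 0.26). For miR-193a-3p the middle dose libraries had 1890.4, 1445 and 1589.7 CPM, close to the high dose and far below the low dose. miR-183-5p was high in 1 middle dose library, with 392, 59.6 and 91.7 CPM, and did not pass without it (middle dose replicate 1, at 0.44) or without low dose replicate 3 (1.48). Of these 8 calls, those of miR-182 and miR-193a-3p held with each library left out. miR-148a-3p was lost without low dose replicate 2 (0.51) or middle dose replicate 2 (0.47), and miR-98-3p without middle dose replicate 1 (-0.87) or 3 (-1.06). The calls of miR-194-3p (0.57 to 0.74), miR-582-5p (-1.38 to -1.06) and miR-802-5p (-0.90 to -0.78) were each lost in 4 or 5 of the 6 fits with a library left out. The high minus middle difference of miR-193a-3p was -0.10 ± 0.21 and that of miR-340-5p 0.47 ± 0.17, neither of which passed (adjusted p of 0.831 and 0.154 in edgeR).

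Set beside the day 7 controls, the differences did not form 1 order. Of the 56 lower miRNAs, the control mean lay beyond the low dose mean in 22, between the doses in 15 and beyond the high dose mean in 19. Of the 23 higher miRNAs the numbers were 8, 5 and 10. The 4 group means ran in 1 direction from control through low and middle to high for 17 of the 56 and 6 of the 23. For 34 of the 56 and 15 of the 23, the low dose had the most extreme mean of the 4 groups, and in 25 and 10 of these its libraries did not overlap the controls. Over all 328 tested miRNAs the low dose mean was the most extreme in 143 (43.6%), and in 82 (25%) it was so without overlap with the controls. The 79 were chosen because the low dose differed from the high dose. That favours an extreme low dose mean and sets the step from low to high in each order. The position of the control mean and the orders in 1 direction were not counted over all tested miRNAs. Nothing is therefore read from any of these counts.

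miR-145-5p, for example, had 78.0, 38.5 and 44.0 CPM in controls, 600.2, 645 and 656 CPM at the low dose, 472, 398 and 372 CPM at the middle dose and 367, 333 and 297 CPM at the high dose. It was highest at the low dose and far above the controls at every dose. miR-193a-3p, with control values of 888, 664 and 565 CPM, miR-365-3p, with 37.1, 15.8 and 19.1 CPM, and miR-142-5p, with 1077, 678 and 1114 CPM, had the same order of groups.

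The means of miR-340-5p were in ascending order over the 4 groups, with 534, 331 and 312 CPM in controls, 742, 756 and 805 CPM at the low, 796, 1003 and 1072 CPM at the middle and 1281, 1304 and 1385 CPM at the high dose. Those of miR-24-2-5p were in descending order, with 148, 279.8 and 233 CPM in controls, 172, 181 and 169 CPM at the low, 116, 87.7 and 97.8 CPM at the middle and 82.8, 78.7 and 81.0 CPM at the high dose. The controls of miR-24-2-5p overlapped its low dose libraries. miR-101a-3p was lowest at the low dose, with 5729, 8166 and 8434 CPM in controls and 4395, 6073 and 5724 CPM at the middle dose. For miR-101a-3p the high dose thus lay nearer to the controls than the low dose did.

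**Figure D5:**
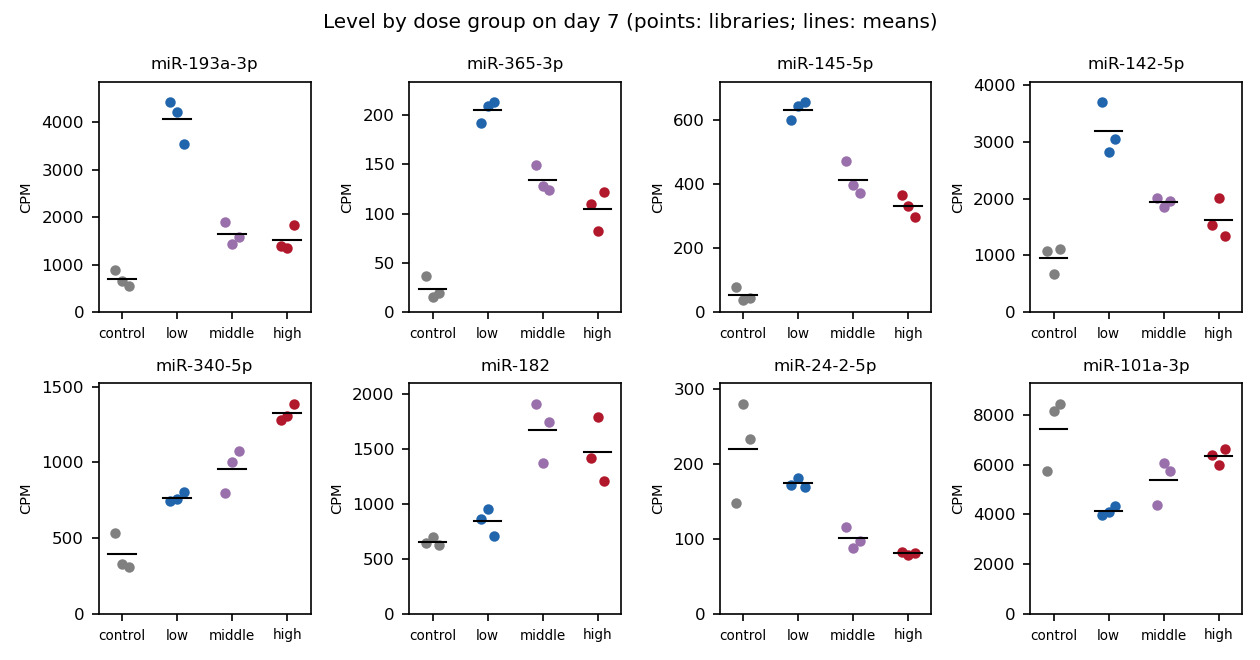
CPM of 8 miRNAs on day 7 in control, low, middle and high dose libraries, with points for the 3 libraries of a group and lines for the means. miR-193a-3p, miR-365-3p, miR-145-5p and miR-142-5p peak at the low dose, the means of miR-340-5p ascend and those of miR-24-2-5p descend over the groups, and miR-101a-3p is lowest at the low dose.

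On days 3 and 14 more miRNAs were called between the same doses, from 6 libraries a dose instead of 3. More libraries by themselves favour more calls, so this count and the 79 of day 7 are not alike. With the 6 high and 6 low dose libraries of those days, 164 of 328 miRNAs passed (50%), 88 higher (26.8%) and 76 lower (23.2%). The split was 70 higher and 98 lower with library size alone and 67 and 87 with the filter of at least 10 CPM. The largest under the rule were miR-22-5p (3.84 ± 0.18), miR-128-3p (3.38 ± 0.25), miR-322-3p (2.60 ± 0.14) and miR-671 (2.51 ± 0.20) among the higher, and miR-363-3p (-1.09 ± 0.19), miR-141-3p (-1.07 ± 0.22), miR-99a-5p (-1.05 ± 0.15) and miR-24-2-5p (-0.97 ± 0.13) among the lower. On day 7 the high minus low value was 0.56 ± 0.22 for miR-22-5p, 0.34 ± 0.30 for miR-128-3p, -0.12 ± 0.18 for miR-322-3p and 0.26 ± 0.26 for miR-671, and none of the 4 passed. miR-22-5p was called higher on day 7 with DESeq2's size factors (0.71), with no filter (0.79) or the stricter one (0.65), in DESeq2's Wald test (0.71) and in a fit of the compared groups alone (0.64). It had 217, 212 and 227 CPM at the high dose and 155, 131 and 162 CPM at the low dose on day 7, where the low dose of day 3 averaged 15.1 ± 3.41 CPM and that of day 14 16.5 ± 1.72 CPM (SD, n = 3 each).

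The difference between the 2 contrasts (day 7 minus the mean of days 3 and 14) was itself tested, and 71 miRNAs passed (21.6%), 9 more positive (2.74%) and 62 more negative (18.9%) on day 7. The split was 29 and 49 with DESeq2's size factors, 21 and 52 with library size alone, 29 and 47 with the filter of at least 10 CPM and 31 and 48 in DESeq2's Wald test. With single libraries left out, the more positive ran from 3 (low dose replicate 1 of day 7) to 30 (high dose replicate 1 of day 14) and the more negative from 42 (low dose replicate 3 of day 14) to 63 (high dose replicate 2 of day 3). Under the rule these were miR-200b-3p (0.97 ± 0.28), miR-181a-2-3p (0.87 ± 0.24), miR-6329 (0.78 ± 0.26) and miR-200a-3p (0.78 ± 0.25) in the first direction. The miR-200b-3p difference was lost without high dose replicate 1 of day 7 (0.71), that of miR-200a-3p without it (0.66) or low dose replicate 1 of day 7 (0.66), and that of miR-6329 without any of 5 single libraries (0.70 to 0.81). In the second they were miR-22-5p (-3.29 ± 0.28), miR-128-3p (-3.03 ± 0.39), miR-191a-5p (-3.01 ± 0.22) and miR-365-3p (-2.78 ± 0.34). miR-193a-3p, lower at the high dose on day 7, was higher at the high dose on the other days (0.85 ± 0.15), as were miR-145-5p (1.84 ± 0.17) and miR-365-3p (1.81 ± 0.20).

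Other miRNAs had the same sign on both sets of days. miR-322-5p was at -0.87 ± 0.10 on days 3 and 14 and miR-24-2-5p at -0.97 ± 0.13, with tested differences between day 7 and the other days of -0.07 ± 0.17 and -0.13 ± 0.22 that did not pass. miR-182 was at 0.81 ± 0.15, miR-340-5p at 1.31 ± 0.12 and miR-331-3p at 1.13 ± 0.19 on those days, in the direction of day 7, and their differences from day 7 of -0.00 ± 0.26, -0.53 ± 0.20 and -0.26 ± 0.33 did not pass either. miR-150-5p was lower at the high dose on the other days too (-0.36 ± 0.13), by less than on day 7. Its tested difference of -0.86 ± 0.23 (adjusted p = 0.00501 in edgeR) was lost without low dose replicate 2 (-0.62) or 3 (-0.57) of day 14 or high dose replicate 3 of day 7 (-0.64). miR-342-3p and miR-142-5p, also white blood cell miRNAs called on day 7, went the other way. Their tested differences of -1.63 and -1.29 were more negative than their day 7 values of -1.14 and -0.96. Their high minus low values on days 3 and 14 were thus above 0. Since the low dose libraries of day 7 sat apart from those of days 3 and 14, differences between the days and between those libraries cannot be told apart.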

How the data were processed

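Small RNA of rat liver was sequenced from total RNA with Illumina TruSeq small RNA libraries, per the labels' protocols. The deposited table holds the authors' raw read counts per mature miRNA, not normalized, in 37 count columns for 35 samples, and 2 samples (middle dose, day 14) had 2 run columns each, which were summed. The genome build was rn6, per the submitters' processing notes, and which aligner, counter and miRNA annotation were used is not given in the sources used here. Replicates of the compared groups differed beyond counting noise (chi-square per degree of freedom of 64.9 to 114.6), so all were kept as separate libraries.

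Counts were filtered by filterByExpr (minimum count 10, minimum total 15), normalised with TMM and modelled with edgeR 4.0.16 under R 4.3.3, each of the 12 groups of the 35 libraries having its own mean (23 residual degrees of freedom). Contrasts were tested by the quasi-likelihood F-test, with Benjamini-Hochberg adjustment over the 328 miRNAs of each comparison and a threshold of 0.05. Standard errors were obtained as the size of the log2 fold change over the root of F, and CPM from library sizes multiplied by the TMM factors. Fits were tested on simulated counts before use. Depth, at 3486287 reads or more in each of the 6 libraries, sets the counting error of scarce miRNAs.

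Members and lists were chosen with earlier results of these data known. miRNAs were named by a rule: up to 12 each way with the largest change among those called with a mean of at least 10 CPM and no overlap between the 2 groups, up to 4 each way in the other 4 comparisons, and up to 4 members of each of 27 lists, plus 11 fixed names; others are stated as chosen later or are members of lists, seed groups or hairpins. Other settings tried were scaling by DESeq2's size factors or by library size, testing without a low-count filter or with one of 10 CPM in at least 3 libraries, DESeq2 1.42.0, fits of the compared groups alone, a replicate block and each library left out. Sequences are from RefSeq (GRCr8). Figures were drawn with matplotlib 3.10.9.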

Additional observations from a re-analysis of the deposited data

Results flagged for a closer look

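Of 36 miRNAs named by size in the comparison of day 7, named for every comparison, or named for the difference between the days, 17 had a high minus low dose difference on day 7 unlike that on days 3 and 14, by a test of the difference itself (edgeR, adjusted p below 0.05). Over all 328 tested miRNAs, 71 (21.6%) passed this test. Of the 17, 8 were named because they passed that test (miR-22-5p, miR-128-3p, miR-191a-5p, miR-365-3p, miR-200b-3p, miR-181a-2-3p, miR-6329 and miR-200a-3p). Others were named for a large day 7 value, which is itself part of the difference tested. Nothing is therefore read from the count of 17. In log2 units (day 7 minus the mean of the other days), it was more negative on day 7 for miR-22-5p (-3.29), miR-128-3p (-3.03), miR-191a-5p (-3.01), miR-365-3p (-2.78), miR-145-5p (-2.77) and miR-193a-3p (-2.26). It was also more negative for miR-342-3p (-1.63), miR-374-5p (-1.43), miR-98-3p (-1.35), miR-142-5p (-1.29), miR-150-5p (-0.86) and miR-22-3p (-0.45). It was more positive for miR-200b-3p (0.97), miR-181a-2-3p (0.87), miR-6329 (0.78), miR-200a-3p (0.78) and miR-532-5p (0.68). With single libraries left out, miR-22-3p was lost in 8 fits (-0.37 to -0.19), miR-532-5p in 8 (0.63 to 0.73), miR-150-5p in 3 (-0.64 to -0.57), miR-98-3p in 2 (-1.03 and -0.98), miR-200a-3p in 2 (0.66 in each), miR-200b-3p in 1 (0.71) and miR-6329 in 5 (0.70 to 0.81). miR-22-3p was also lost with DESeq2's size factors (-0.25), either other filter (-0.26 in each), DESeq2's Wald test (-0.25) and the compared groups alone (-0.32), and miR-150-5p (-0.67) and miR-98-3p (-1.16) with no filter.

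miR-191a-5p shows the levels behind such a value. On day 7 it had 7434, 7518 and 7131 CPM at the high dose and 10876, 10216 and 10329 CPM at the low dose. On day 3 the means were 8712 ± 268 CPM at the high dose and 1688 ± 456 CPM at the low dose, and on day 14 8273 ± 373 CPM at the high dose and 1329 ± 129 CPM at the low dose (SD, n = 3 each). The high dose stayed near one level on the 3 days and the low dose of day 7 lay far above the other low dose days. The first principal component separates the low dose libraries of day 7 from those of days 3 and 14 in the same way, and its part in these differences was not tested.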

How the results depend on the processing

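The comparison of the high with the low dose on day 7 called 79 miRNAs, 23 higher and 56 lower, and depended on scaling and filtering. DESeq2's size factors gave 29 lower. No low-count filter gave 45 in all, 35 higher and 10 lower, and 20 for the middle against the low dose. The DESeq2 Wald test gave 43 higher, and fits of the compared groups alone gave 37 higher. The filter of at least 10 CPM in 3 libraries gave 29 higher and 42 lower. With each library left out in turn, the count ran from 49 to 67, with 15 to 25 higher and 24 to 46 lower. The other counts ran from 13 to 41 for the middle against the low dose, from 0 to 6 for the high against the middle dose, from 147 to 169 for the 2 doses compared on days 3 and 14, and from 58 to 77 for the difference between the days. At an adjusted p below 0.1, 5 hairpins had both arms called, 2 of them in opposite directions. Libraries that share a replicate number were not treated as pairs. The correlations of their deviations from the group means were -0.121, 0.122 and 0.118, beside -0.191 to 0.088 for unlike numbers. With 3 libraries in a group these values cannot decide whether the libraries are paired. A replicate block gave 77 calls. The cause of these changes was not tested.

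Some miRNAs that were not called changed sign. miR-21-5p was at 0.14 with DESeq2's size factors, 0.0139 with library size alone, 0.22 with no filter, 0.0818 with the stricter filter, 0.14 with the Wald test and 0.066 with the compared groups alone, and ran from -0.14 to 0.18 with 1 library left out. miR-22-3p was at 0.0368 with DESeq2's size factors, 0.12 with no filter and 0.0368 with the Wald test. miR-210-3p was at 0.16 with DESeq2's size factors, 0.0262 with library size alone, 0.24 with no filter, 0.099 with the stricter filter, 0.16 with the Wald test and 0.0866 with the compared groups alone, and ran from -0.0311 to 0.14 with 1 library left out. miR-126a-5p was at 0.0337 with no filter. miR-126a-3p was at 0.0184 with no filter. miR-15b-5p was at 0.0686 with DESeq2's size factors, 0.16 with no filter, 0.012 with the stricter filter, 0.069 with the Wald test and 0.00218 with the compared groups alone, and ran from -0.18 to 0.0965 with 1 library left out. miR-133a-3p ran from -0.93 to 0.0202 with 1 library left out. miR-144-5p was at 0.000641 with no filter. miR-322-3p was at 0.0343 with DESeq2's size factors, 0.11 with no filter and 0.0338 with the Wald test, and ran from -0.18 to 0.0234 with 1 library left out. miR-33-3p was at 0.011 with no filter, and ran from -0.41 to 0.0496 with 1 library left out. miR-375-3p ran from -0.0400 to 0.29 with 1 library left out. miR-486 ran from -0.0609 to 0.29 with 1 library left out. miR-96-5p ran from -0.14 to 0.41 with 1 library left out. Depth limits scarce miRNAs such as miR-210-5p (38 against 123 reads) and miR-1247-3p (63 against 13 reads).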

Other observations

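Neighbouring miRNAs were also set side by side, grouped where their RefSeq (GRCr8) positions lay within 10000 bp on one strand. In the miR-374/421 cluster on chromosome X, miR-374-5p and miR-421-3p (-0.66 ± 0.16) were lower and miR-374-3p did not pass, except in a fit of the compared groups alone (higher, 0.50); the miR-421-3p call was lost without high dose replicate 3 (-0.50). In the miR-191/425 cluster on chromosome 8, miR-191a-5p (-0.51 ± 0.17) and miR-425-5p (-0.51 ± 0.13) were lower by nearly equal amounts, though the miR-191a-5p call was lost whichever library was left out (-0.53 to -0.31) and the miR-425-5p call without high dose replicate 3 (-0.35) or with DESeq2's size factors (-0.35). In the miR-195/497 cluster on chromosome 10, both 5p arms were lower and neither 3p arm passed. On chromosome X, miR-532-5p was higher and was the 1 called member of 6 tested in its cluster. That cluster also holds miR-188-5p, miR-362-3p, miR-500-3p, miR-501-3p and miR-532-3p. Over all tested miRNAs, 7.01% were called higher and 17.1% lower.

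The largest value in the comparison that did not pass was that of miR-6321, at -3.07 ± 1.58 (adjusted p = 0.157 in edgeR). It had 0, 2.64 and 0 CPM at the high dose and 6.65, 12.3 and 4.83 CPM at the low dose, from 12 reads against 97, and 2 of the 3 high dose libraries held 0 reads, which allows up to 3 reads in each at this depth (counting error only). It was called lower in a fit of the compared groups alone (-2.97), and with single libraries left out the fitted value, which is no bound where all libraries of a group hold 0 reads, ran from -8.00 to -2.43.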
